A study of Mus musculus with 21 samples.

Results

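The genes described here encode the insulin-like growth factor (IGF) ligands, their receptors and their binding proteins: Igf1, Igf2, Igf1r, Igf2r, Igfbp2, Igfbp3, Igfbp4, Igfbp5, Igfbp6 and Igfbp7. These 10 genes, of 26852 in the table, were chosen by name as members of the family. Genes averaging at least 10 normalized counts over all libraries were tested, which left 12976 genes, 9 of the members among them, while Igfbp2 lay below that level.

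RNA-seq was available from 21 libraries of Nes low mesenchymal cells sorted from mouse bone marrow, 3 in each of 7 groups, and asked how this stroma differs when human leukemia cells lie close by or fill the marrow. The hosts were unconditioned NSG mice, an immunodeficient strain without mature T, B and NK cells, with green fluorescent protein under Nestin regulatory sequences, so the sort depends on that transgene. Engrafted mice received cells of HL60 or ML1, both established human acute myeloid leukemia lines, at an age of 8 to 12 weeks. The cells released sLP-mCherry, a lipid-permeable red protein that neighbouring cells take up. The ctrl group (libraries 373, 374 and 375) came from untreated mice of the same strain without engraftment, and its age is not given separately. Early libraries, at low engraftment, hold either cells that had taken up mCherry (early ch+: 523, 524 and 525 for HL60, 538, 539 and 541 for ML1) or cells that had not (early ch-: 527, 528 and 529 for HL60, 543, 544 and 546 for ML1). Late libraries, at heavy engraftment, were sorted with no marker (397, 398 and 399 for HL60, 581, 582 and 583 for ML1). The treatment field calls the ML1 late mice unengrafted, against their titles and time point, and they were kept as late. The extraction text of the labels names CD31+ endothelial cells, against their cell type field, and the stroma and endothelial marker levels are given with the other marker lists. The labels do not say which libraries came from separate mice, so the p-values measure only the spread between these samples. No paired analysis was run, because the labels do not link ch+ and ch- libraries of a mouse, although their numbers run in parallel. The study describes both as taken from shared marrow, so the tests between them here treat as separate what may be paired.

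As background, IGF1 and IGF2 are secreted growth factors that signal through the tyrosine kinase receptor encoded by Igf1r, while the receptor encoded by Igf2r takes up IGF2 for degradation and carries enzymes to lysosomes. Binding proteins hold the ligands outside the cell, extend their life and limit or deliver them to receptors, and proteases release the ligands again. In bone and marrow stroma, IGF1 is known as a growth factor for osteoblasts and blood-forming cells, and IGFBP5 binds bone matrix.

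All values below are the deposited regularized log2 values, in which 1 unit is a doubling. Called means an adjusted p under 0.1 in limma. In late cells Igf1, Igfbp3, Igfbp5 and Igfbp7 rose and Igf2 fell against ctrl in both leukemias, whereas Igfbp4 rose in HL60 and was lower in ML1, a direction that turned in ML1 when libraries were rescaled to their totals. The Igf2 call in HL60 late (-0.88, and -0.31 on library totals) and the Igf1 call in ML1 late were lost in several runs. Early ch+ cells already had more Igf1 than ctrl in both lines. No member was called in ch- cells against ctrl. Igf1 did not pass the direct unpaired test of ch+ against ch- cells, although some alternatives called it.

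The levels were ordered first in ctrl cells, per kilobase of exon on the log2 scale. Igfbp5 was highest at 11.97 ± 0.18 (SD, n = 3), followed by Igfbp7 at 11.33 ± 0.30 and Igfbp4 at 9.56 ± 0.20. Igfbp3 came next at 8.25 ± 0.61, then Igf1 at 7.15 ± 0.39 and Igf2r at 6.94 ± 0.15. The lower end held Igfbp6 at 6.08 ± 0.51, Igf2 at 6.08 ± 0.37, Igf1r at 5.41 ± 0.08 and Igfbp2 at 0.85 ± 0.05. Libraries overlapped between Igfbp3 and Igf1, between Igf1 and Igf2r, and between Igfbp6 and Igf2, so the order within these pairs is not beyond their spread. In ctrl, Igfbp5 made up 51.8% ± 3.7 of the summed binding protein signal per kilobase, Igfbp7 33.2% ± 3.0, Igfbp4 9.82% ± 1.75 and Igfbp3 4.17% ± 1.58.

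Against ctrl, 5 of 9 tested members were called higher and 1 lower in late cells of both lines together (n = 6 against 3), where 21.5% of all tested genes were called. In HL60 late cells 5 were higher and 1 lower, against 13.7% of all genes, and in ML1 late cells 5 were higher and 3 lower, against 22% of all genes. Against early ch+ cells, late cells had 5 members higher and 1 lower, against 19.7% of all genes, and against early ch- cells also 5 higher and 1 lower, against 22.5%. Early ch+ cells had 1 member higher than ctrl, where 6.17% of all genes were called. By line, 2 were higher in HL60 ch+ cells (5.33% of all genes), and 2 were higher and 1 lower in ML1 ch+ cells (6.69%). Against ch- cells, ch+ cells of both lines together had 2 members higher (6.26% of all genes), and HL60 ch+ cells alone also 2 (3.92%).

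Some of these counts moved when a single library was left out, and the share of all genes called in those runs is not given. Late against ch+ kept 2 called members without library 583 and 3 without 541, 581 or 582, and ML1 late against ctrl kept 4 without 375 and 5 without 374 or 583. Pooled ch+ against ctrl had 0 without library 374 or 375 and 2 without 523, 524 or 582. HL60 ch+ against ctrl had 1 without 374, 523 or 525, and ML1 ch+ against ctrl 1 without 374. Pooled ch+ against ch- had 1 without any of 9 libraries named beside Igfbp4, and HL60 ch+ against HL60 ch- 1 without 523 or 528.

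Several comparisons called 0 members in limma. Early ch- cells against ctrl called 0 for both lines together (1.92% of all genes), for HL60 (1.57%) and for ML1 (2.34%). At an unadjusted p under 0.05 these held 0, 1 and 2 members, beside 1549, 1388 and 1643 of all 12976 tested genes. ML1 ch+ against ML1 ch- cells called 0 (4.25%), with 2 called without library 528 and 1 without 541. At an unadjusted p under 0.05 that comparison held 4 members, beside 1787 of all 12976 tested genes. Without library 373 or 398, ML1 ch- against ctrl called 1. Between the lines, 0 were called among ch+ cells (0.0154%) and among ch- cells (0.0539%), and 0 for the difference of ch+ minus ch- between the lines (0.00771%). At an unadjusted p under 0.05 these 3 held 2, 3 and 1 members, beside 988, 885 and 831 of all 12976 tested genes. At the late stage 2 members were higher in HL60 than in ML1, against 4.09% of all genes. For late minus ch+ in HL60 against the same in ML1, a comparison chosen after seeing the data, 2 members were called, against 2.5% of all genes, and 1 without library 398, 524, 538, 539 or 581.

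**Figure D1:**
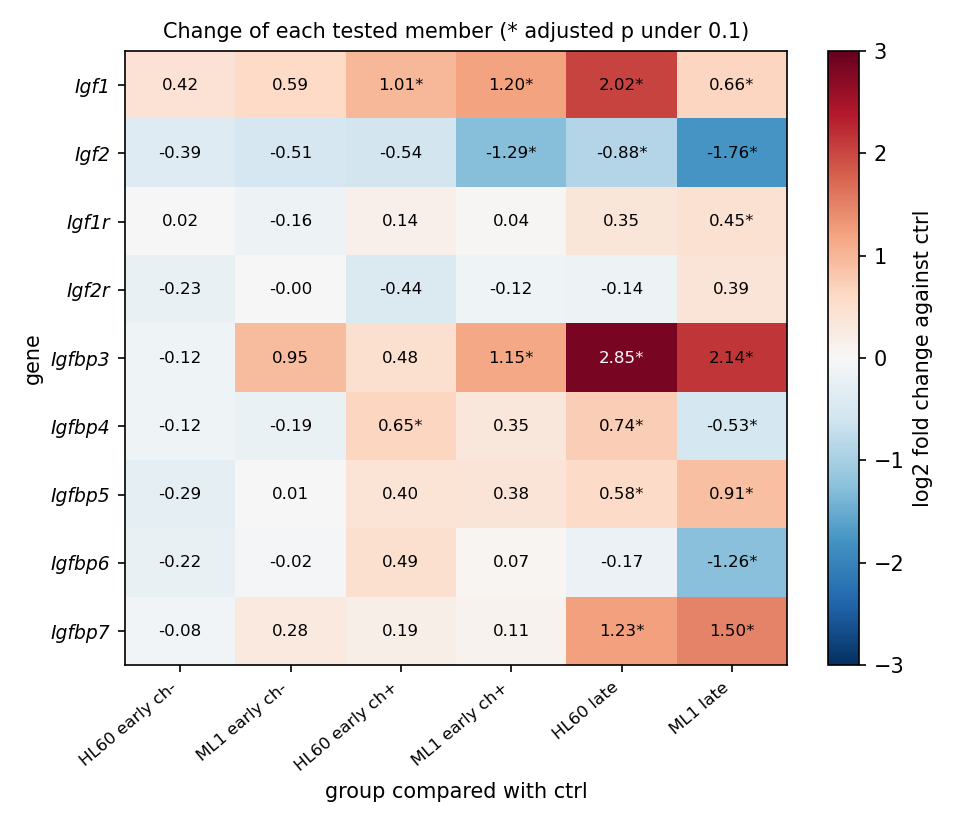
Log2 fold change against ctrl, by color and printed value, of each tested member (vertical axis) in each early and late group of HL60 and ML1 (horizontal axis, n = 3 per group), with an asterisk where limma's adjusted p was under 0.1. The highest value is Igfbp3 in HL60 late (2.85) and the lowest Igf2 in ML1 late (-1.76), and Igfbp4 in ML1 late (-0.53) turned to 0.29 after rescaling to library totals.

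Igf1, the ligand of the IGF1 receptor, had log2 values of 10.89, 10.14 and 10.35 in ctrl. The ch- libraries had 11.07, 10.27 and 11.30 in HL60 and 11.07, 11.11 and 10.96 in ML1, and the ch+ libraries 11.67, 11.06 and 11.66 in HL60 and 11.98, 11.62 and 11.38 in ML1. The late libraries had 12.26, 12.74 and 12.43 in HL60 and 10.84, 11.28 and 11.21 in ML1. Every ch+ and every HL60 late library lay above all ctrl libraries, and in ML1 late cells library 581 fell within the ctrl range. Within ML1, the late libraries lay below all ch+ libraries on the authors' scale, while in HL60 they lay above them. The ML1 order turned after rescaling to library totals, where Igf1 against ctrl was 1.47 in late and 1.26 in ch+ cells, and was nearly level without the ribosomal RNA gene (1.24 and 1.21). Igf1 was higher in late cells than in ctrl by 2.02 ± 0.22 (SE) in HL60 (adjusted p = 8.48e-08, 3 of 3 libraries) and by 0.66 ± 0.22 in ML1 (adjusted p = 0.034, 3 of 3 above the ctrl mean). It was higher in ch+ cells by 1.01 ± 0.22 in HL60 (adjusted p = 0.00556) and 1.2 ± 0.22 in ML1 (adjusted p = 0.000688), each in 3 of 3 libraries. Against ch- cells, ch+ cells had 0.60 ± 0.24 for both lines together (adjusted p = 0.197, 6 of 6 above the ch- mean), 0.58 in HL60 (adjusted p = 0.198) and 0.61 in ML1 (adjusted p = 0.154), none of them called. The pooled value was called after rescaling to library totals (0.75), with the compared groups alone, with the mean of both lines and in ML1 libraries alone. Taken in number order within each line, every ch+ library lay above its ch- counterpart. The labels do not state such a pairing, and it was not tested. The ch- cells themselves had 0.51 ± 0.29 against ctrl (adjusted p = 0.53), with 5 of 6 libraries above all ctrl libraries. For both lines together, ch+ cells were higher than ctrl by 1.1 ± 0.29 (adjusted p = 0.0273, 6 of 6 libraries), and late cells by 1.34 ± 0.29 (adjusted p = 0.00142, 6 of 6 above the ctrl mean). HL60 late exceeded ML1 late by 1.37 ± 0.22 (adjusted p = 8.99e-05), and late minus ch+ was larger in HL60 by 1.56 ± 0.31 (adjusted p = 0.0025). The ML1 late call was lost without library 374 (0.49), 375 (0.60), 582 (0.57) or 583 (0.60), without the filter and without the mean-variance trend. The pooled ch+ call was lost without library 374 (0.94) or 375 (1.05), without the filter and with robust variance.

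Igf2, the fetal-type ligand whose gene is imprinted and expressed from the paternal allele in most mouse tissues, had log2 values of 8.54, 8.98 and 8.26 in ctrl. The ch- libraries had 8.57, 8.29 and 7.74 in HL60 and 8.45, 7.83 and 7.98 in ML1, and the ch+ libraries 8.39, 8.44 and 7.32 in HL60 and 7.66, 7.63 and 6.63 in ML1. The late libraries had 7.38, 7.92 and 7.85 in HL60 and 6.97, 6.35 and 7.19 in ML1. All late libraries of both lines, and all ML1 ch+ libraries, lay below every ctrl library, whereas HL60 ch+ and both ch- groups overlapped ctrl. Igf2 fell by 1.32 ± 0.33 in late cells of both lines together (adjusted p = 0.00502, 6 of 6 libraries). By line it fell by 1.76 ± 0.33 in ML1 late (adjusted p = 0.000152) and by 0.88 ± 0.33 in HL60 late (adjusted p = 0.0894), each in 3 of 3 libraries, and by 1.29 ± 0.33 in ML1 ch+ cells (adjusted p = 0.0165, 3 of 3). Rescaling to library totals shrank the late values, still called, to -0.63 for both lines together and -0.94 in ML1. The difference between the lines at the late stage did not pass the test (0.88 ± 0.33, adjusted p = 0.2), except with library weights (0.82) or the compared groups alone (0.88). The HL60 late call was lost without library 373 (-0.90), 374 (-0.68), 397 (-0.71), 398 (-0.98), 399 (-0.94) or 581 (-0.88), without the filter, without the trend, at an adjusted p under 0.05, after quantile normalization (-0.83) and after rescaling to library totals with (-0.31) or without (-0.44) the ribosomal RNA gene. The ML1 ch+ call was lost without library 374 (-1.09) or 541 (-0.95).

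Genes beside or across Igf2 and Igf2r were read with it. H19, the imprinted noncoding RNA next to Igf2, had a mean of 7.08 ± 0.59 in ctrl and fell by 1.19 ± 0.47 in ML1 late cells (adjusted p = 0.0784), with -0.47 ± 0.47 in HL60 late cells (adjusted p = 0.639). That fall is on the authors' scale, and rescaling to library totals moved the median of all tested genes in ML1 late against ctrl upward. In the early groups H19 had 7.55 ± 0.30 in HL60 ch-, 6.23 ± 0.51 in ML1 ch-, 6.56 ± 1.47 in HL60 ch+ and 7.33 ± 0.44 in ML1 ch+ cells. Igf2os, which overlaps Igf2 exons on the opposite strand, was near the lowest values, with a mean of -0.98 ± 0.04 in ctrl, and was not tested. Airn, the antisense RNA that starts within Igf2r and represses it from the paternal allele in many mouse tissues, had 7.83 ± 0.56 in ctrl and was lower in ch+ than in ch- cells by -0.87 ± 0.24 (adjusted p = 0.032), with no call in HL60 (-0.85, adjusted p = 0.192) or ML1 (-0.89, adjusted p = 0.146). The library kit and the strand setting given for the counting do not match, so reads of overlapping genes on opposite strands may not be separated, which also applies to Polr2b across the end of Igfbp7.

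On the authors' scale the receptors had small differences, and those of late cells depended on the scale. Igf1r, which encodes the signalling receptor, lay between 9.41 and 9.57 in ctrl, between 9.02 and 9.80 in ch- and between 9.39 and 9.75 in ch+ cells. In late cells it lay between 9.74 and 9.92 for HL60 and between 9.91 and 9.95 for ML1. All 6 late libraries lay above every ctrl library. Igf1r was higher in late cells than in ctrl by 0.40 ± 0.14 for both lines together (adjusted p = 0.0575, 6 of 6 libraries) and by 0.45 ± 0.17 in ML1 (adjusted p = 0.0635, 3 of 3), with 0.35 in HL60 (adjusted p = 0.215), which was called only under rescaling to library totals with (0.92) or without (0.79) the ribosomal RNA gene. Rescaling to library totals gave 1.09 for both lines together and 1.26 in ML1. The pooled call was lost without library 374 (0.37) or 375 (0.39), at an adjusted p under 0.05, without the trend and in either line alone, and the ML1 call without library 374 (0.41), 375 (0.44), 581 (0.45), 582 (0.46) or 583 (0.44), at an adjusted p under 0.05 and without the trend. Igf2r, which encodes the uptake receptor, lay between 10.01 and 10.31 in ctrl, between 9.72 and 10.42 in ch- and between 9.26 and 10.34 in ch+ cells. In late cells it lay between 9.84 and 10.13 for HL60 and between 10.52 and 10.56 for ML1. The ML1 late libraries lay above all ctrl libraries and the HL60 late libraries did not. All HL60 ch+ libraries lay below every ctrl library without a call (-0.44, adjusted p = 0.222, and -0.34 after rescaling to library totals), while ML1 ch+ libraries overlapped ctrl. Igf2r was not called against ctrl in either line, and in HL60 late its value turned from -0.14 to 0.43 after rescaling to library totals, where it was called in both lines (1.2 in ML1) and for both together (0.82). In ML1 late it was also called with totals without the ribosomal RNA gene (0.98) and with the compared groups alone (0.39). Between the late groups Igf2r did not pass the test (-0.53 ± 0.18, adjusted p = 0.154, n = 3 each), except under rescaling to library totals with (-0.78) or without (-0.69) the ribosomal RNA gene, with library weights (-0.52), with the compared groups alone and without library 523.

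Against ch+ cells, late cells had more Igf1r by 0.31 ± 0.12 (adjusted p = 0.0787, 6 of 6 above the ch+ mean) and more Igf2r by 0.40 ± 0.16 (adjusted p = 0.0813, 5 of 6). The Igf1r call was lost without library 399 (0.30), 525 (0.30), 538 (0.28), 539 (0.27), 581 (0.30), 582 (0.30) or 583 (0.30), at an adjusted p under 0.05, without the trend and in either line alone. The Igf2r call was lost without library 523 (0.28), 524 (0.41), 541 (0.38), 581 (0.35), 582 (0.35) or 583 (0.36), and in 5 of 12 other alternatives. Against ch- cells, Igf1r was higher in late cells by 0.47 ± 0.12 (adjusted p = 0.00428, 6 of 6 above the ch- mean), with 0.33 and no call in HL60 libraries alone.

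The other calls in late against ch- cells were in both ligands and 3 binding proteins. Igf1 was higher by 0.83 ± 0.24 (adjusted p = 0.0136, 5 of 6 above the ch- mean), with 0.065 and no call in ML1 libraries alone. Igf2 fell by 0.87 ± 0.27 (adjusted p = 0.0227, 6 of 6 below the ch- mean), a call lost in HL60 libraries alone (-0.49) and under rescaling to library totals with (-0.10) or without (-0.34) the ribosomal RNA gene. Igfbp3 rose by 2.08 ± 0.30, Igfbp5 by 0.88 ± 0.13 and Igfbp7 by 1.26 ± 0.12, each in 6 of 6 libraries, with adjusted p-values of 4.47e-06, 4.05e-06 and 8.12e-09.

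**Figure D2:**
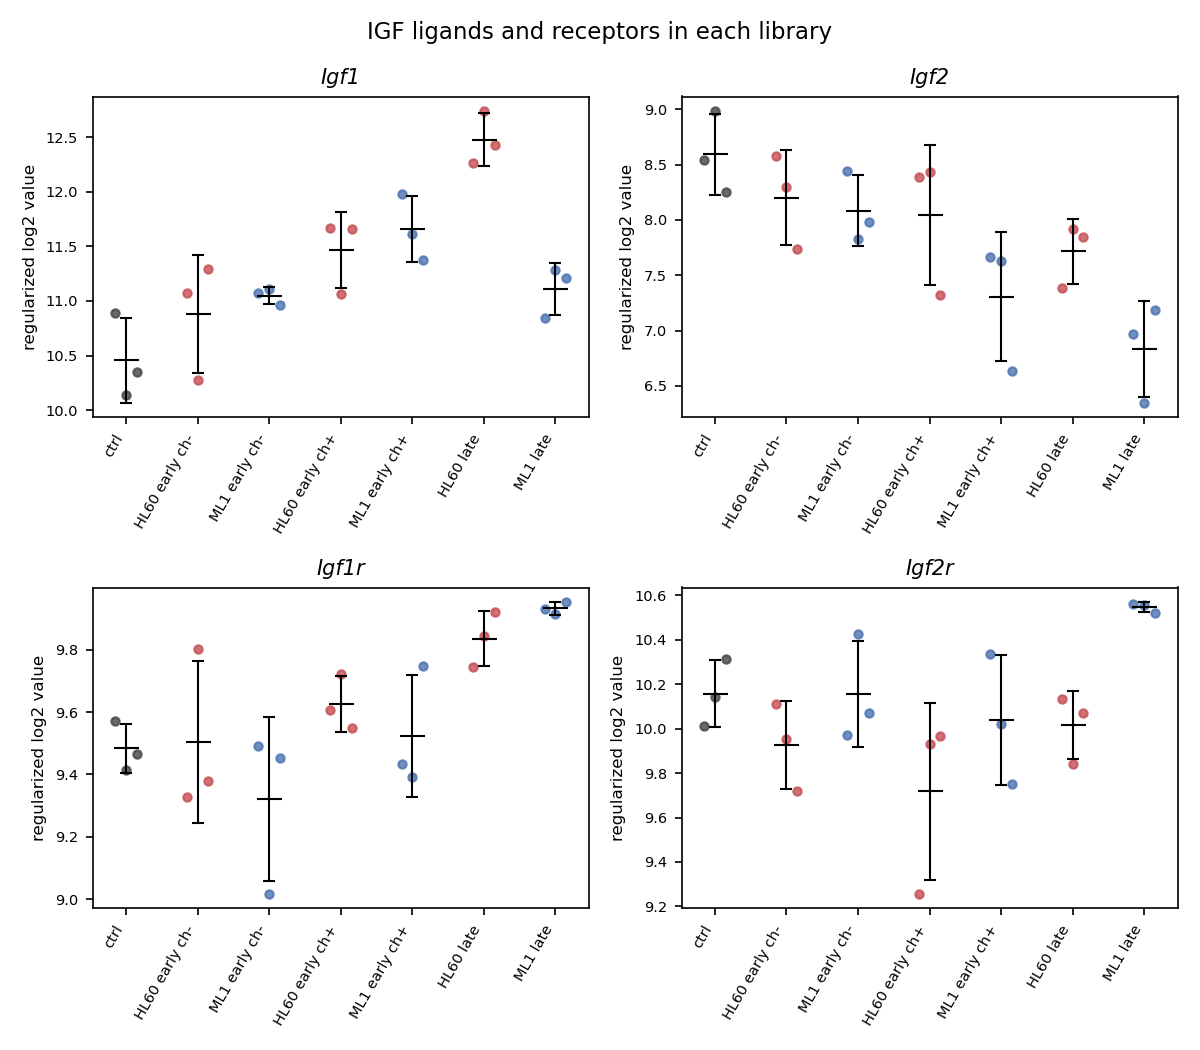
Log2 regularized values of the ligand and receptor genes by group, with points for libraries and bars for the mean and SD (n = 3 per group, HL60 red, ML1 blue, ctrl grey). Igf1 lies highest in HL60 late (12.48 ± 0.24), and Igf2 lowest in ML1 late (6.84 ± 0.44).

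Igfbp3 encodes the main carrier of IGFs in blood, which also acts locally in tissues. It had log2 values of 10.31, 9.20 and 10.18 in ctrl. The ch- libraries had 10.09, 8.92 and 10.33 in HL60 and 10.52, 10.83 and 11.18 in ML1, and the ch+ libraries 10.68, 9.95 and 10.50 in HL60 and 11.19, 11.15 and 10.82 in ML1. The late libraries had 12.31, 13.74 and 12.20 in HL60 and 11.98, 11.94 and 12.21 in ML1. All late libraries of both lines lay above every other library, and library 398 stood highest. Igfbp3 rose in late cells by 2.85 ± 0.32 in HL60 (adjusted p = 2.15e-07) and 2.14 ± 0.32 in ML1 (adjusted p = 8.09e-06), each in 3 of 3 libraries, and by 2.5 ± 0.37 for both together (adjusted p = 9.29e-06, 6 of 6), a fold of 5.65. Against ch+ cells it rose by 1.68 ± 0.30 (adjusted p = 0.000102, 6 of 6). The lines did not pass the test of a difference at the late stage (0.71 ± 0.32, adjusted p = 0.391). Apart from library 398, the HL60 late libraries (12.31 and 12.20) lay near the highest ML1 late library (12.21). In ML1 ch+ cells it was higher than ctrl by 1.15 ± 0.32 (adjusted p = 0.0347, 3 of 3), a call lost without library 374 (0.81), 538 (1.09) or 539 (1.11), without the filter, without the trend and with robust variance. ML1 ch- cells also had 0.95 against ctrl (adjusted p = 0.165, 3 of 3 above all ctrl libraries), called only in ML1 libraries alone, with the compared groups alone and without library 398. ML1 ch+ against ch- cells had 0.21 (adjusted p = 0.838).

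Igfbp5, the binding protein known for binding bone matrix, had log2 values of 14.63, 14.69 and 14.35 in ctrl. The ch- libraries had 14.37, 14.00 and 14.44 in HL60 and 14.27, 14.76 and 14.66 in ML1, and the ch+ libraries 14.93, 15.02 and 14.93 in HL60 and 14.99, 14.99 and 14.82 in ML1. The late libraries had 15.26, 15.06 and 15.10 in HL60 and 15.59, 15.16 and 15.64 in ML1. The order ran without overlap from ch- to ch+ to late, with ctrl among the ch- libraries. Igfbp5 was higher in ch+ than in ch- cells by 0.53 ± 0.13 (adjusted p = 0.00863, 6 of 6 libraries above all ch- libraries), and by 0.69 ± 0.14 in HL60 (adjusted p = 0.00259). In ML1 it was 0.37 ± 0.14 (adjusted p = 0.185) and not called, with 3 of 3 libraries above all ML1 ch- libraries. The ML1 value was called after rescaling to library totals (0.55). Against ctrl, pooled ch+ cells had 0.39, which was called with robust variance, the compared groups alone, the mean of both lines and HL60 libraries alone. Late cells were higher than ctrl by 0.58 ± 0.14 in HL60 (adjusted p = 0.0047) and 0.91 ± 0.14 in ML1 (adjusted p = 1e-05), each in 3 of 3 libraries, and by 0.74 ± 0.15 together (adjusted p = 0.000741, 6 of 6). Late cells were also higher than ch+ cells by 0.35 ± 0.13 (adjusted p = 0.0558, 6 of 6), a call lost without library 541 (0.33), 581 (0.29) or 583 (0.28), at an adjusted p under 0.05, without the trend and in HL60 libraries alone (0.18).

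Igfbp7, a secreted binding protein of low affinity for IGFs that is found in vessel walls and matrix, had log2 values of 11.90, 11.60 and 11.30 in ctrl. The early libraries spanned 11.48 to 12.10 in ch- and 11.41 to 11.99 in ch+. The late libraries had 12.75, 12.90 and 12.83 in HL60 and 13.18, 12.95 and 13.17 in ML1. The late libraries of both lines stood apart above all others, and the early groups overlapped ctrl. Igfbp7 rose by 1.23 ± 0.15 in HL60 late (adjusted p = 5.26e-07) and 1.5 ± 0.15 in ML1 late (adjusted p = 3.75e-09), each in 3 of 3 libraries, and against ch+ cells by 1.21 ± 0.12 (adjusted p = 1.91e-08, 6 of 6).

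Igfbp4, which encodes an inhibitory binding protein cleaved by the protease PAPP-A, had log2 values of 11.84, 11.48 and 11.78 in ctrl. The ch- libraries had 11.78, 11.17 and 11.79 in HL60 and 11.57, 11.32 and 11.63 in ML1, and the ch+ libraries 12.61, 12.07 and 12.39 in HL60 and 12.37, 12.20 and 11.56 in ML1. The late libraries had 12.23, 12.66 and 12.43 in HL60 and 11.04, 11.21 and 11.28 in ML1. Late libraries of HL60 lay above all ctrl libraries and those of ML1 below them. Igfbp4 was higher in HL60 late by 0.74 ± 0.18 (adjusted p = 0.00687) and lower in ML1 late by -0.53 ± 0.18 (adjusted p = 0.0464), each in 3 of 3 libraries, and the ML1 value turned to 0.29 after rescaling to library totals and to 0.064 without the ribosomal RNA gene. HL60 late exceeded ML1 late by 1.26 ± 0.18 (adjusted p = 2.13e-05), a call kept in every alternative run and without any single library. Late minus ch+ was larger in HL60 by 0.95 ± 0.26 (adjusted p = 0.0518), a call lost without library 398 (0.85), 524 (0.81), 538 (0.79), 539 (0.88) or 581 (0.89), at an adjusted p under 0.05, without the filter, without the trend, after quantile normalization (0.82) and under both rescalings (0.66 and 0.77). In ch+ cells it was higher than in ch- cells by 0.66 ± 0.22 (adjusted p = 0.0883, 6 of 6 above the ch- mean) and in HL60 by 0.77 ± 0.18 (adjusted p = 0.0133). It was also higher in HL60 ch+ cells than in ctrl, by 0.65 ± 0.18 (adjusted p = 0.0417, 3 of 3). In ML1 neither was called, with 0.54 ± 0.18 in ch+ against ch- cells (adjusted p = 0.128) and 0.35 ± 0.18 against ctrl (adjusted p = 0.357). Against ch- cells the ML1 value was called after rescaling to library totals (0.72) and without library 528 (0.54) or 541 (0.78). Against ctrl it was called without library 541 (0.59).

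The HL60 late call of Igfbp4 against ctrl was also kept throughout, while its other calls against ctrl and ch- were lost in some runs. The ML1 late call was lost without library 373 (-0.46), 375 (-0.48) or 581 (-0.46), without the filter and without the trend. The call in ch+ against ch- cells of both lines was lost without library 523 (0.58), 524 (0.68), 525 (0.62), 528 (0.58), 538 (0.62), 539 (0.66), 543 (0.66), 544 (0.61) or 546 (0.67). It was also lost in 7 of the 12 other alternatives. In HL60 alone, the ch+ against ch- call was lost without library 523 (0.65) or 528 (0.57), without the filter and without the trend, and the ch+ against ctrl call without library 374 (0.54), 523 (0.53) or 525 (0.64), without the filter and without the trend.

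Igfbp6, whose protein prefers IGF2, lay between 5.73 and 6.75 in ctrl, between 5.37 and 6.92 in ch- and between 5.75 and 7.39 in ch+ cells. In late cells it lay between 5.68 and 6.28 for HL60 and between 4.50 and 5.28 for ML1. The ML1 late libraries lay below all ctrl libraries, and the HL60 late libraries overlapped ctrl. Igfbp6 was lower in ML1 late by -1.26 ± 0.46 (adjusted p = 0.0562, 3 of 3), a call lost without library 374 (-1.27), 375 (-1.0) or 583 (-1.03), at an adjusted p under 0.05, without the filter, and after rescaling to library totals with (-0.45) or without (-0.67) the ribosomal RNA gene. Against ch+ cells, late cells of both lines had -0.995 ± 0.35 (adjusted p = 0.0503, 6 of 6 below the ch+ mean), lost without library 524 (-0.87), 541 (-0.82), 582 (-0.92) or 583 (-0.79), at an adjusted p under 0.05, without the filter, in HL60 libraries alone (-0.66) and under both rescalings (-0.38 and -0.51). Igfbp2, a binding protein made by several tissues, stayed between 1.67 and 2.77 in all libraries, and Igfbp1 had a mean of -1.47 in ctrl.

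**Figure D3:**
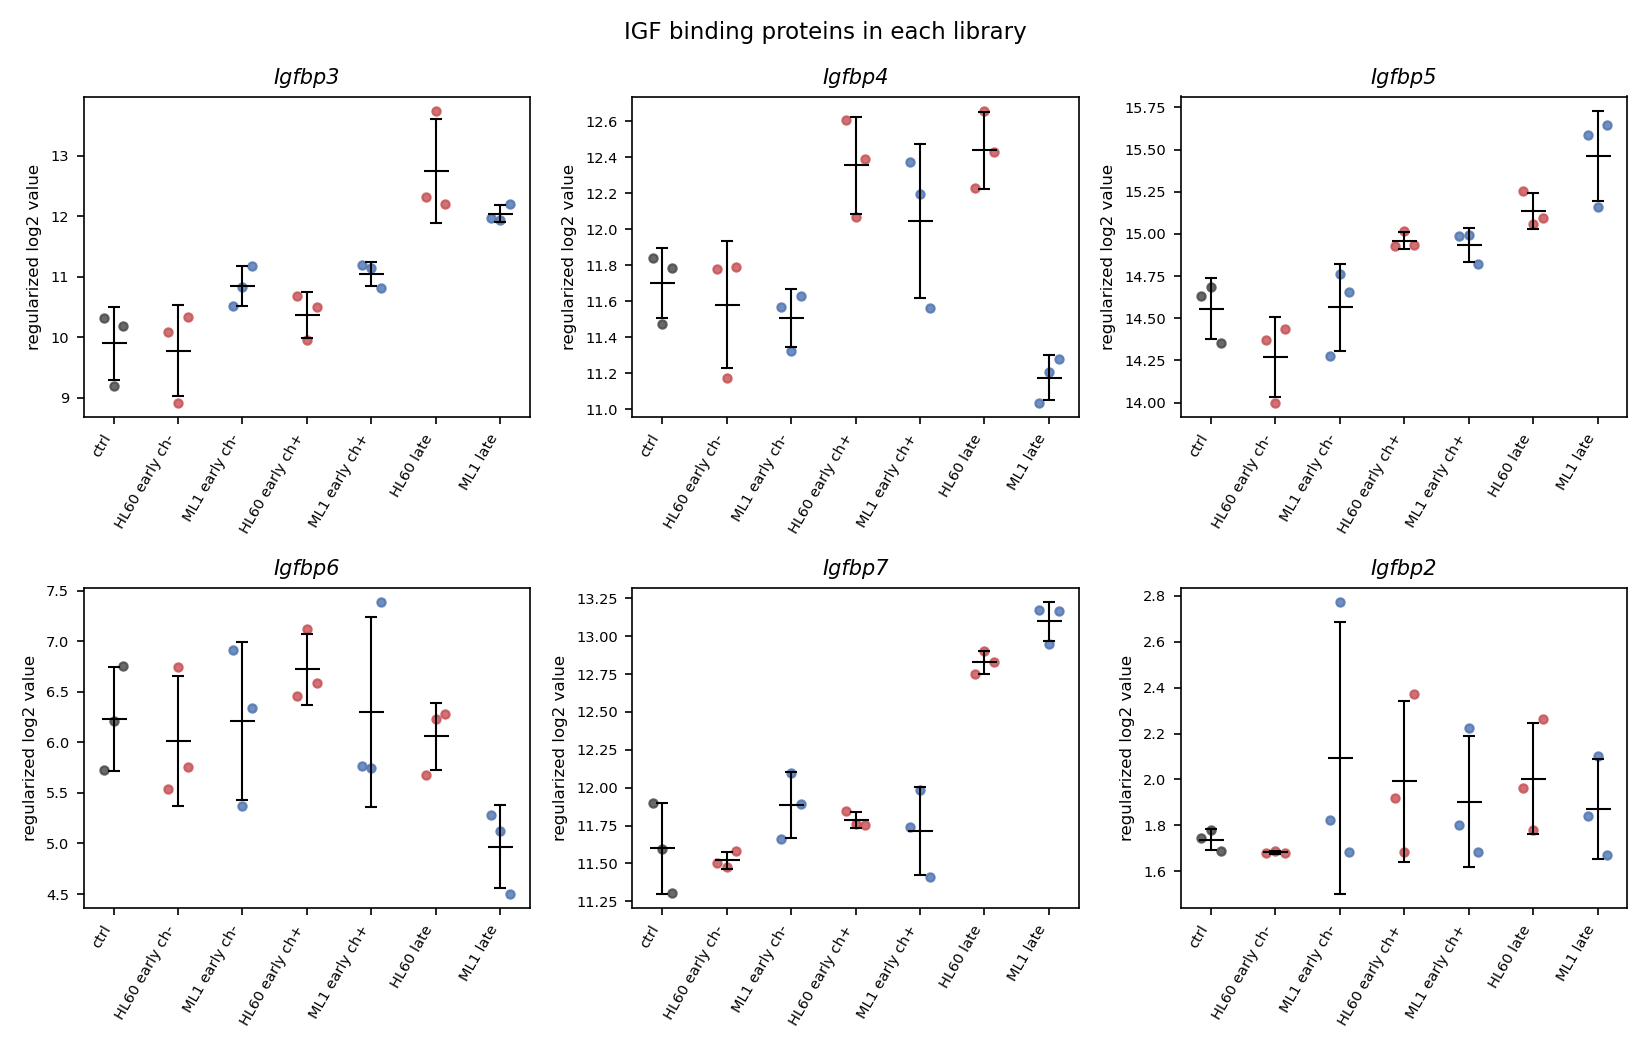
Log2 regularized values of the binding protein genes by group, with points for libraries and bars for the mean and SD (n = 3 per group, HL60 red, ML1 blue, ctrl grey). Late libraries of both lines lie highest for Igfbp3, Igfbp5 and Igfbp7, while Igfbp4 lies at 12.44 ± 0.21 in HL60 late and 11.17 ± 0.12 in ML1 late.

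The make-up of the binding protein pool is given by group and was not tested. Per kilobase, Igfbp7 made up 38.2% ± 2.8 of the summed signal in HL60 late and 43.5% ± 1.8 in ML1 late, and Igfbp5 38.3% ± 6.0 and 45.1% ± 2.6. Igfbp3 made up 15.2% ± 8.0 in HL60 late, with 24.4% in library 398, and 8.09% ± 0.72 in ML1 late. Igfbp4 made up 7.98% ± 0.65 in HL60 late and 3.16% ± 0.51 in ML1 late. In the early groups Igfbp7 made up 29.3% and 28.6% in HL60 and ML1 ch+ and 35.9% and 36.8% in ch-, and Igfbp5 53.3% and 53.6% in ch+ and 48.5% and 47.5% in ch-. Summed binding protein signal exceeded summed ligand signal by 5.19 ± 0.10 in ctrl, 4.69 ± 0.13 in HL60 late and 6.09 ± 0.32 in ML1 late, on the log2 scale, which was not tested either. In HL60 the excess was 4.89 ± 0.23 in ch+ and 4.79 ± 0.21 in ch- cells. In ML1 it was 4.78 ± 0.22 in ch+ and 5.02 ± 0.28 in ch- cells.

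The scale matters for the late groups. On the authors' median-of-ratios scale the median change of all tested genes in late against ctrl was 0.02, and rescaling to library totals moved it to 0.71, with 93.8% of called genes higher instead of 47.3%. In HL60 late the median moved to 0.58 and in ML1 late to 0.84, and in late against ch+ to 0.63. It moved to 0.77 in late against ch-, to 0.13 in ch+ against ch-, to -0.24 in HL60 late against ML1 late and to -0.30 in late minus ch+ between the lines. The summed signal was lowest in the ML1 late libraries, and a single ribosomal RNA gene held 16.8% to 38.6% of it per library. Igf1, Igfbp3, Igfbp5 and Igfbp7 stayed higher and Igf2 lower in late against ctrl under each of these scales.

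Markers of cell types moved with the stages. In bulk RNA, fewer cells of a type and less RNA per cell cannot be told apart. The stroma list (11 of 11 above the filter, most abundant Cxcl12), which marks the labelled cells, had summed log2 levels of 16.24, 15.67 and 15.89 in ctrl, 16.92, 17.13 and 16.84 in HL60 late and 16.89, 16.97 and 17.08 in ML1 late, with 7 of 11 genes higher and 2 lower in late against ctrl. The osteoblast list (9 of 9, most abundant Col1a1) had 20.25, 20.40 and 20.70 in ctrl, 18.94, 19 and 18.62 in HL60 late and 17.03, 16.34 and 16.49 in ML1 late, with 7 of 9 lower and 1 higher. The chondrocyte list (10 of 10, most abundant Col2a1) had 17.33, 16.24 and 16.44 in ctrl, 14.05, 14.29 and 13.44 in HL60 late and 12.18, 12.00 and 11.63 in ML1 late, with 10 of 10 lower. Osteoblast and chondrocyte signal was thus lowest in ML1 late, and between the late groups 8 of 9 osteoblast markers and 5 of 10 chondrocyte markers were higher in HL60. Early ch+ cells had less chondrocyte signal too, at 14.10 ± 0.68 in HL60 and 13.54 ± 0.44 in ML1, beside 15.99 ± 0.69 and 15.63 ± 0.41 in ch- cells, with 10 of 10 markers lower against ctrl and against ch- cells. Stroma markers were higher in ch+ cells than in ctrl for 6 of 11 genes and higher than in ch- cells for 1 of 11. The fibroblast, periosteum and tendon list (8 of 11, most abundant Fmod, with Clec3b, Scx and Tnmd below the filter) had 12.71 ± 0.49 in ctrl, 11.69 ± 0.22 in HL60 late and 9.80 ± 0.29 in ML1 late, with 3 of 8 lower and 1 higher in late against ctrl. Their part in the differences of Igf1, Igf2, Igfbp4 and the other members was not tested.

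Early libraries carried blood cell signal, although the sort was meant to remove leukocytes by CD45 beads and to gate with CD45 and Ter119, a red cell marker. The red cell list (8 of 8, most abundant Hbb-bs) had summed log2 levels of 9.23 ± 0.59 in ctrl, 13.00 ± 0.77 and 13.07 ± 0.48 in HL60 and ML1 ch+, 12.78 ± 0.34 and 13.09 ± 0.24 in ch-, and 8.02 ± 0.08 and 7.49 ± 0.23 in late. The leukocyte list (7 of 9, most abundant S100a9, with Cd79a among those below the filter) had 7.06 ± 1.51 in ctrl, 10.41 ± 0.66 and 10.69 ± 0.67 in ch+, 10.31 ± 0.17 and 10.82 ± 0.53 in ch-, and 6.08 ± 0.26 and 5.87 ± 0.18 in late. All 8 red cell and all 7 tested leukocyte markers were higher in ch+ than in ctrl, and 4 and 2 of them were lower in late than in ctrl. The macrophage list (3 of 9, most abundant Lyz2, with Adgre1, Csf1r, Cd68, C1qa, C1qb and C1qc below the filter) had 8.48 ± 0.40 in ctrl and between 9.35 and 9.59 in the early groups, with 1 of 3 higher and 2 lower in late against ctrl. The smooth muscle list (8 of 8, most abundant Rgs5) had 14.59 ± 0.46 in ctrl and 13.11 ± 0.19 and 13.03 ± 0.09 in ch+, with 7 of 8 lower than in ctrl and than in ch-. In late cells it had 13.91 in HL60 and 13.87 in ML1, with 4 of 8 lower and 1 higher than in ctrl and 5 of 8 higher than in ch+. The skeletal muscle list (5 of 8, most abundant Acta1, with Myh1, Myh4 and Tnnc2 below the filter) had 6.26 ± 0.64 in ctrl and 7.84 ± 0.57 and 8.93 ± 0.42 in ch+, with 5 of 5 higher, and 1 of 5 lower in late than in ctrl. In ch- cells it had means of 7.64 in HL60 and 7.55 in ML1. There, 0 of 5 were called against ctrl, and 0 of 5 in ch+ against ch- cells. The endothelial list (7 of 9, most abundant Cdh5, with Tie1 and Egfl7 below the filter) had 8.37 ± 0.21 in ctrl, with 0 of 7 called in late or ch+ cells of both lines together and 4 of 7 lower in ML1 late. It had 9.11 ± 0.09 in HL60 ch+, with each library above all ctrl libraries, and means of 8.15 in HL60 ch-, 8.31 in ML1 ch+ and 8.63 in ML1 ch-, and 1 of 7 was higher in HL60 ch+ than in HL60 ch-. The Schwann cell list (5 of 5, most abundant S100b) had 8.80 ± 0.09 in ctrl with 4 of 5 lower in ch+ than in ctrl and than in ch-, where S100b was higher, so that the sums were 8.42 and 8.69 in HL60 and ML1 ch+ beside 8.55 and 8.69 in ch-, and 2 of 5 were lower in late than in ctrl. The proliferation list (6 of 7, most abundant Mki67, with Cdk1 below the filter) had 10.00 ± 0.15 in ctrl with 1 of 6 higher in ch+ and 2 lower in late. Their part, and that of chondrocytes and stroma, in the early and late differences of the members was not tested.

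Other genes of the pathway were counted over lists fixed by name. Of 69 such genes, 66 were in the table and 62 were tested. In late against ctrl 11 were called higher and 4 lower, or 24.2% of those tested beside 21.5% of all genes. Among proteases of binding proteins and their inhibitors, 4 of 12 were higher and 2 lower, or 50% beside 21.5% of all genes. Pappa, the protease that cleaves IGFBP4, was higher by 1.27 ± 0.20 (adjusted p = 2.86e-05), with 1.32 in HL60 and 1.23 in ML1. It was also higher than ctrl by 1.14 ± 0.20 in ch+ cells (adjusted p = 0.000624) and by 0.89 ± 0.20 in ch- cells (adjusted p = 0.0209), where HL60 alone was not called (0.68, adjusted p = 0.167). Between ch+ and ch- cells Pappa was not called (0.25). Stc2, whose protein inhibits that protease, fell by 1.46 ± 0.50 in late (adjusted p = 0.0449) and by 1.57 ± 0.50 in ch+ cells (adjusted p = 0.0776), called by line only in ML1 (-1.87 in late, -1.78 in ch+). Stc2 was also called lower in ch+ than in ch- cells of both lines together, but in neither line alone. The proteases Adam9 (0.83) and Mmp14 (0.63) were also higher in late cells, and in each line. Adamts1 (0.83) was called in ML1 late (1.26) but not in HL60 late (0.39), and was lower in HL60 late than in ML1 late by -0.87 ± 0.24 (adjusted p = 0.0391, n = 3 each). Htra1, a serine protease that cleaves IGFBP5, was lower than ctrl in late cells by -0.45 ± 0.18 (adjusted p = 0.0814) and in ch- cells by -0.94 ± 0.18 (adjusted p = 0.00297), and in ch+ cells it had 0.52 against ctrl without a call. By line, the late call held in ML1 (-0.58) and not in HL60 (-0.33), and ML1 ch+ cells were called higher than ctrl (0.61). These falls are on the authors' scale. Rescaling to library totals moved the median of all tested genes in late against ctrl from 0.02 to 0.71, by more than the late falls of Htra1. Htra1 was higher in ch+ than in ch- cells by 1.46 ± 0.14 (adjusted p = 4.37e-08). Adam9 was higher there too, by 0.81 ± 0.14 (adjusted p = 0.000235).

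In the growth hormone axis, which drives Igf1 in liver and other tissues, 2 of 7 genes were called in late against ctrl, or 28.6% beside 21.5% of all genes. Ghr, the growth hormone receptor, was higher by 0.81 ± 0.25 (adjusted p = 0.0207) and Cish, a STAT5-induced inhibitor of cytokine signalling, by 1.65 ± 0.47 (adjusted p = 0.0139). Ghr was also called higher than ctrl in ML1 ch+ cells (mean 11.07, beside 10.14 in ctrl) but not in HL60 ch+ cells (10.50). Among receptors and adaptors 1 of 10 was higher in late against ctrl (Gab1, an adaptor, 1.04) and 1 lower. Of 24 genes of PI3K, AKT and ERK signalling, 2 were higher and 1 lower, or 12.5% beside 21.5% of all genes. The shares called in late against ctrl were 20% for receptors and adaptors, 25% for mannose 6-phosphate genes and 20% for regulators of Igf2. Pik3r1, a regulatory subunit of PI3K, was higher by 0.88 ± 0.15 (adjusted p = 4.59e-05). Of 4 mannose 6-phosphate genes M6pr, the other receptor of that sugar signal, was higher by 0.83 ± 0.15 (adjusted p = 0.00015). Of 5 tested regulators of Igf2, Igf2bp2, an RNA-binding protein, was higher in late by 1.13 ± 0.33 (adjusted p = 0.0177) and in ch+ cells by 1.05 ± 0.33 (adjusted p = 0.0734), by line called only in ML1 late (1.42) and HL60 ch+ (1.26). Igf2bp2 was also called higher in ch+ than in ch- cells of both lines together, but in neither line alone. Foxo1, a transcription factor restrained by AKT, was higher in ch+ cells than in ctrl by 0.81 ± 0.17 (adjusted p = 0.00309) and than in ch- cells by 1.11 ± 0.14 (adjusted p = 1.55e-06). In late cells it was lower than in ch+ cells by -1.10 ± 0.14 (adjusted p = 4.74e-07). On the authors' scale it was also lower than ctrl in ML1 late (-0.47, adjusted p = 0.0777), with no call in HL60 (-0.11). Rescaling to library totals moved the median of all tested genes in ML1 late against ctrl to 0.84.

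Across the 21 libraries the members differed in which genes they ran with, given as Pearson r with no test since groups and libraries are shared. Igf1 was most like Gas6 (0.92), Fst (0.89) and Olfml3 (0.865), and Igfbp4 like Gas6 (0.83), Limch1 (0.82) and Ackr4 (0.78). Igfbp3 was most like Tmem176a (0.93), Deptor (0.92) and Kng2 (0.92). Igfbp5 was most like Col4a2 (0.95), Col4a1 (0.94) and Csf1 (0.93), and Igfbp7 like Pdgfrb (0.97), Bicc1 (0.96) and Nid1 (0.96). Igf2 reached 0.82 with Slc44a1, Igf1r 0.83 with Ifngr2, Igf2r 0.83 with Dusp16 and Igfbp6 0.81 with Slc35g1. Among the members themselves, Igfbp3 ran with Igfbp7 (0.84) and Igfbp5 with Igfbp7 (0.82), while the lowest were Igfbp6 with Igfbp7 (-0.63), Igf2r with Igfbp6 (-0.61) and Igf2 with Igfbp5 (-0.59).

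The promoters of Igfbp3, Igfbp5 and Igfbp7 are printed because these genes rose together in late cells of both lines. They are 300 bases around the start of transcription from RefSeq (GRCm38.p6), 5′ to 3′ on the gene's strand, which is the minus strand for each: chr11:7213874-7214173 for Igfbp3, chr1:72874816-72875115 for Igfbp5 and chr5:77407996-77408295 for Igfbp7. Capitals mark CG dinucleotides, of which Igfbp3 holds 37, Igfbp5 10 and Igfbp7 33, beside a median of 7 over all promoters, and the GC content is 71.7%, 56.3% and 73.3%. Windows of the other members held from 2 (a window of Igf2) to 48 (Igf1r), with 34 in Igf2r and 27 in Igfbp4, so such counts are not particular to these genes.
Igfbp3: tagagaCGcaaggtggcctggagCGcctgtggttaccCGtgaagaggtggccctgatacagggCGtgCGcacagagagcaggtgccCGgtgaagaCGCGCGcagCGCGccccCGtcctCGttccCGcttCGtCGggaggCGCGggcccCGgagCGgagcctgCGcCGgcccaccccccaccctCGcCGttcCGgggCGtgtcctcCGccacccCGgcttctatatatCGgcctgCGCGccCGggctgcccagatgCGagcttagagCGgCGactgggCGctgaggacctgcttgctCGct
Igfbp5: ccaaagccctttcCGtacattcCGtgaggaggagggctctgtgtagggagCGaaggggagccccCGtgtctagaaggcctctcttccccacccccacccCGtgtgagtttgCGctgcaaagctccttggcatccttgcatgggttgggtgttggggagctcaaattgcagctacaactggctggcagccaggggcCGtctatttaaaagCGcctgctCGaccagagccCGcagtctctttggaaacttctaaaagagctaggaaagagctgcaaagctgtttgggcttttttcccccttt
Igfbp7: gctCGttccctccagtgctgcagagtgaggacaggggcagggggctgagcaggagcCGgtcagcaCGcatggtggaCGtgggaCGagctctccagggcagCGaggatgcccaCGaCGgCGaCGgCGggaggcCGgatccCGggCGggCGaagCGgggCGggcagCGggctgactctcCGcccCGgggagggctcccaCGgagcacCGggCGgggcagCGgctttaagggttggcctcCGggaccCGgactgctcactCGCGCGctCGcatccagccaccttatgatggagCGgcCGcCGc

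On both strands, the windows were searched for TATAAA, found in 13.6% of 32851 promoters of the same length, CCAAT, in 37.4%, GGGCGG, which contains CG, in 35.7%, TGANTCA, an AP-1 site, in 7.81%, and GTAAACA, a forkhead site, in 3.65%. Igfbp7 holds GGGCGG 4 times, and the windows of Igfbp3 and Igfbp5 hold none of these letters. GGGCGG was also found in windows of Igfbp2, Igf1r, Igf2 and Igf2r. By position, Igfbp5 lies 5457 bases from Igfbp2 on chromosome 1, and Igfbp3 lies 3539 bases from Igfbp1 on chromosome 11.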

How the data were processed

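RNA-seq of 21 libraries of Nes low cells was used. The authors aligned reads to mm10 with STAR 2.5.1b, counted Ensembl genes with RSEM 1.2.29, and used DESeq2 for normalization and regularization. The deposited values are regularized log2 values of normalized counts. They were read as log2 because their highest value is 22.44, although the study's methods name another base. Counts were not used here, so depth per library is not known here and precision comes from replicates alone. The members and gene lists were chosen with earlier results of these data known.

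Genes with a mean of at least 3.32 on the log2 scale were tested two-sided in limma (version 3.58.1, under R 4.3.3), whose variance prior followed the mean, with Benjamini-Hochberg adjustment over all 12976 genes of each comparison. A fit with 4 groups pooled the lines and a fit with 7 groups kept them apart. Errors of differences are limma standard errors, and others are SD. Regularization shrinks differences of low genes. The method was tested on simulated data for late and HL60 late against ctrl. Changes of 0.5 and of 1 unit were missed there more often than found, so a value that was not called may still be a change. Levels per kilobase used the union of exons on GRCm38. Summed levels add values taken back from the log2 scale. Named pathway genes were the 12 with the largest absolute change among those called in late against ctrl, the 6 in ch+ against ctrl and the 6 in ch+ against ch-, with H19, Igf2os and Airn named in any case. Withheld items are not reported here. For each tested member, up to 3 tested genes with the highest Pearson r were named.

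Alternatives were a stricter threshold, no filter, quantile normalization, library totals, no trend, robust variance, library weights, the compared groups alone, the mean of lines, each line alone and leaving out each library. Totals without the ribosomal RNA gene, and late minus ch+ between the lines, were chosen after seeing the data. Figures were drawn with Python 3.11.15 and matplotlib 3.10.9. Promoters are from RefSeq, and all 10 members were matched by symbol.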

Additional observations from a re-analysis of the deposited data

Results flagged for a closer look

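In groups of 6 libraries, 30 groups were tested for a library far from the others and 3 stood apart. Chance gives about 1 in 20 where all 6 share a normal distribution, but these groups pool HL60 and ML1, so that rate is only a guide. The libraries were HL60 early ch- library 528 for Igf1, at 10.27, ML1 early ch- library 544 for Igfbp2, at 2.77, and HL60 late library 398 for Igfbp3, at 13.74. The Igf1 value lies within the ctrl range of 10.14 to 10.89, and Igfbp2 is below the filter.

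The lines differed at the late stage by test for Igf1 (1.37, HL60 minus ML1) and Igfbp4 (1.26). Igfbp5, Igfbp6 and Igfbp7 did not pass but were called in some runs. Igfbp5 was lower in HL60 under rescaling to library totals with (-0.57) or without (-0.48) the ribosomal RNA gene. It was also lower after quantile normalization (-0.63), with library weights (-0.37) and without library 582 (-0.48). Igfbp6 was higher with library weights (1.12) or the compared groups alone (1.09), and Igfbp7 lower after rescaling to library totals (-0.51). The change from ch+ to late differed between the lines for Igf1 (1.56) and Igfbp4 (0.95), a comparison chosen after seeing the data. For Igfbp4 the late libraries of HL60 lay above and those of ML1 below all ctrl libraries, with a difference of 1.26 between them. After rescaling to library totals, the ML1 value against ctrl turned to 0.29.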

How the results depend on the processing

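In late against ctrl for both lines together, Igf1, Igf2, Igfbp3, Igfbp5 and Igfbp7 kept their direction and their call under every alternative run, over ranges of 0.66 to 2.03, -1.76 to -0.63, 2.14 to 3.19, 0.58 to 1.44 and 1.23 to 2.06. For the values below the cause was not tested.

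Among values called in limma or in the alternative, directions turned for Igfbp4 in late against ctrl with ML1 alone (-0.53), Igf1 in late against ch+ with ML1 alone (-0.55), Igf2r in HL60 late against ctrl after rescaling to library totals (0.43), and Igfbp4 in ML1 late against ctrl after rescaling to library totals (0.29) or to totals without the ribosomal RNA gene (0.064). Uncalled values turned too, as in late against ch+ for Igf2 (0.21) and Igfbp4 (0.22) and in HL60 late against ctrl for Igfbp6 (0.40), each after rescaling to library totals, and for Igf2r in late against ctrl with HL60 alone (-0.14).

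Counts of called members changed as follows. The share of all tested genes called in each run is not given beside them. A changed count here, or with a library left out, therefore need not be particular to the members. Ch+ against ctrl gave 0 without the filter, 4 with the compared groups alone, 5 with the mean of both lines, and 3 with HL60 alone or with ML1 alone. Ch- against ctrl gave 1 with ML1 alone. Ch+ against ch- gave 1 at an adjusted p under 0.05, without the filter, after quantile normalization, without the trend, with robust variance, with library weights and with ML1 alone, and 3 after rescaling to library totals, with the compared groups alone and with the mean of both lines. Late against ch+ gave 2 at an adjusted p under 0.05, and 3 without the trend or with HL60 alone. ML1 late against ctrl gave 5 without the filter or the trend. HL60 ch+ against ctrl, and against HL60 ch-, gave 1 without the filter or the trend. ML1 ch- against ctrl gave 1 with the compared groups alone. ML1 ch+ against ML1 ch- gave 3 after rescaling to library totals and 1 with the compared groups alone. HL60 late against ML1 late gave 5 after rescaling to library totals or with the compared groups alone, 6 with library weights and 4 with totals without the ribosomal RNA gene. Late minus ch+ between the lines gave 1 at an adjusted p under 0.05, without the filter, after quantile normalization, under both rescalings and without the trend. With the longest transcript as length, 2 members changed place in the order of levels.

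Leaving out each library gave 0 to 2 members in ch+ against ctrl, 1 to 2 in ch+ against ch-, 2 to 7 in late against ch+, 4 to 8 in ML1 late against ctrl, 1 to 3 in HL60 ch+ against ctrl, 1 to 4 in ML1 ch+ against ctrl, 0 to 1 in ML1 ch- against ctrl, 1 to 3 in HL60 ch+ against HL60 ch-, 0 to 2 in ML1 ch+ against ML1 ch-, and 1 to 3 in late minus ch+ between the lines. Alternatives that need counts, a pseudocount and a pairing of ch+ with ch- libraries were not run, and unknown depth per library limits what can be said of low genes such as Igfbp2.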
